A study of Mus musculus with 54 samples.

Results

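The dose response of liver messenger RNA was followed across the 4 ordered groups of the study: control mice and mice given daily 1.5, 15 or 150 mg per kg body weight (mg/kg bw/d) of di-isononyl phthalate (DINP), a technical mixture of branched phthalate diesters used to soften PVC. All 54 liver samples of the series were used, 14 control, 13 at 1.5, 13 at 15 and 14 at 150 mg/kg bw/d. The mice were wild-type C57BL/6J males on a high-fat diet, kept singly, which entered the experiment at 8 weeks of age and ate DINP in a gelatin pellet every morning for 20 weeks, while control mice ate a placebo pellet. No group without the high-fat diet, of females or of another strain was compared here, and each sample was bulk RNA of the medial liver lobe, so that fewer cells of a type and less RNA per cell cannot be told apart. The groups were coded 0, 1, 2 and 3 in order of dose, and of the 20162 rows in the table the 11431 genes with a mean value of at least 1 over all samples were tested. A gene had a trend when the straight-line slope of log2(value + 1) on this code differed from 0 (limma, adjusted p under 0.05), and a departure when its 4 group means left that line in an F test at the same threshold. The slope is therefore a log2 difference per dose step, and 3 steps lead from control to 150 mg/kg bw/d.

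Phthalate diesters are cleaved in the gut to monoesters, some of which activate PPARα, the nuclear receptor that senses fatty acids in hepatocytes. PPARα partners with RXR on DNA and raises the genes of fatty acid uptake, of peroxisomal and mitochondrial beta-oxidation and of microsomal omega-oxidation, among which Cyp4a and Ehhadh are the classical rodent markers of peroxisome proliferators. The question of an ordered comparison is whether such genes climb from dose to dose, switch at a single dose or turn back between doses.

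The libraries of the 15 mg/kg bw/d group differed from the others before any single gene was considered. On the first principal component (13.7% of the variance) 7 libraries stood apart from the rest, and they were 6 of the 13 at 15 mg/kg bw/d and 1 control. The rank correlation across genes between a library's deviation from the mean profile and the GC content of the last 500 bases of the transcript lay between -0.185 and 0.035 at 15 mg/kg bw/d and between -0.045 and 0.129 in the other 3 groups, and 8 of the 13 libraries at 15 lay below every library of the other groups. The labels give no extraction or sequencing batch, so dose and such a difference cannot be told apart at 15 mg/kg bw/d, and results that rest on this group are given with and without the 7 libraries. The 8 hepatocyte markers checked were all expressed, their summed level had a median between 37755 and 40481 in the 4 groups, and none had a trend. Of the marker lists for 13 other cell types, Cfd, an adipocyte marker that liver can also express, was the only tested gene with a trend.

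**Figure D1:**
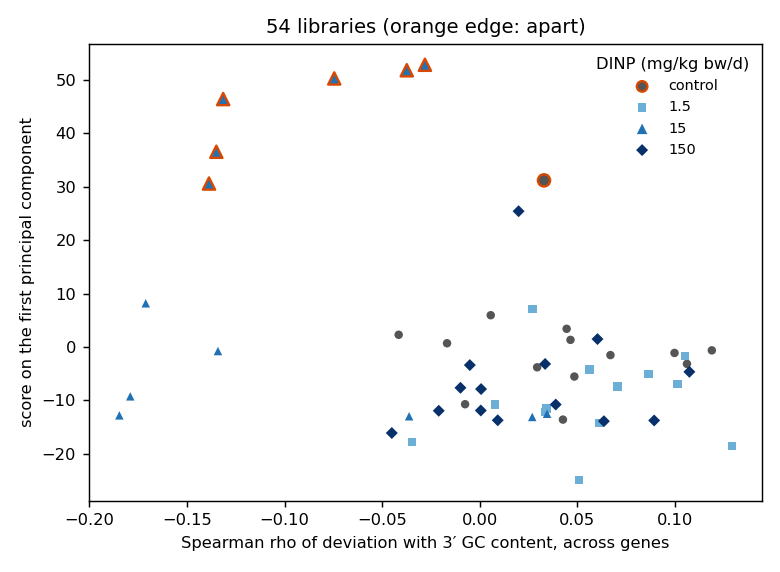
Each point is 1 of the 54 libraries, with its score on the first principal component and the rank correlation between its deviation from the mean profile and GC content, coloured by dose group. The 7 libraries that stood apart lie at high scores, and 8 of the 13 libraries at 15 mg/kg bw/d have a correlation below every library of the other groups (-0.185 at the lowest).

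A trend was found for 298 genes (2.61% of those tested), of which 184 rose with dose (1.61%) and 114 fell (0.997%). The genes that rose with the steepest slopes were mostly fatty acid oxidation genes: among the 10 steepest were 5 Cyp4a genes, Acot1, Angptl4 and Ehhadh, beside the serine protease Cfd and the keratin Krt23. The steepest falling genes were more mixed and were led by the apolipoprotein Apoa4 and the adipokine Serpina12. The changes were modest for most genes, with a median slope of 0.13 per step among the rising and -0.14 among the falling genes, against -0.001 over all genes tested. By GC content of the transcript end, 35 genes rose and 12 fell in the lowest of 5 equal bins, and 17 rose and 32 fell in the highest, a difference that was not tested. The fitted difference between control and 150 mg/kg bw/d passed 0.5 on the log2 scale for 100 of the 298. The split of 184 rising and 114 falling depended on the scaling of the samples: it was 149 and 161 after quantile normalization, 262 and 94 on normal scores of the ranks, and 88 and 475 when each sample was divided by its total, which moved the median slope of all genes from -0.001 to -0.030.

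A significant slope did not by itself mean a graded response. Of the 298 genes, 136 also departed from the line, and a straight line was the best-matching of 6 simple shapes for 35 of the 184 rising genes, compared with 77 for a step at 150 mg/kg bw/d, 47 for a step at 15, 18 for 15 alone and 7 for a step at 1.5. Among the 114 falling genes the step at 15 was the most frequent shape, with 56 genes (49.1%). It was followed by the step at 150 with 24 (21.1%), the line with 21 (18.4%), the step at 1.5 with 9 (7.89%) and 15 alone with 4 (3.51%). Without the 7 libraries that stood apart, 514 genes had a trend, and a step at 150 was the most frequent shape in both directions, with 148 of the 307 rising and 81 of the 207 falling genes, against 76 and 54 for a step at 15. A step at 15 was shared with the full set by 27 rising and 28 falling genes, and a step at 150 by 65 and 18. Only 68 genes, 38 rising and 30 falling, were graded in the stricter sense of moving in the same direction at all 3 steps with an unadjusted departure p of at least 0.05. Without the 7 libraries 121 genes were graded by this rule, and 39 of the 68 were among them.

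**Figure D2:**
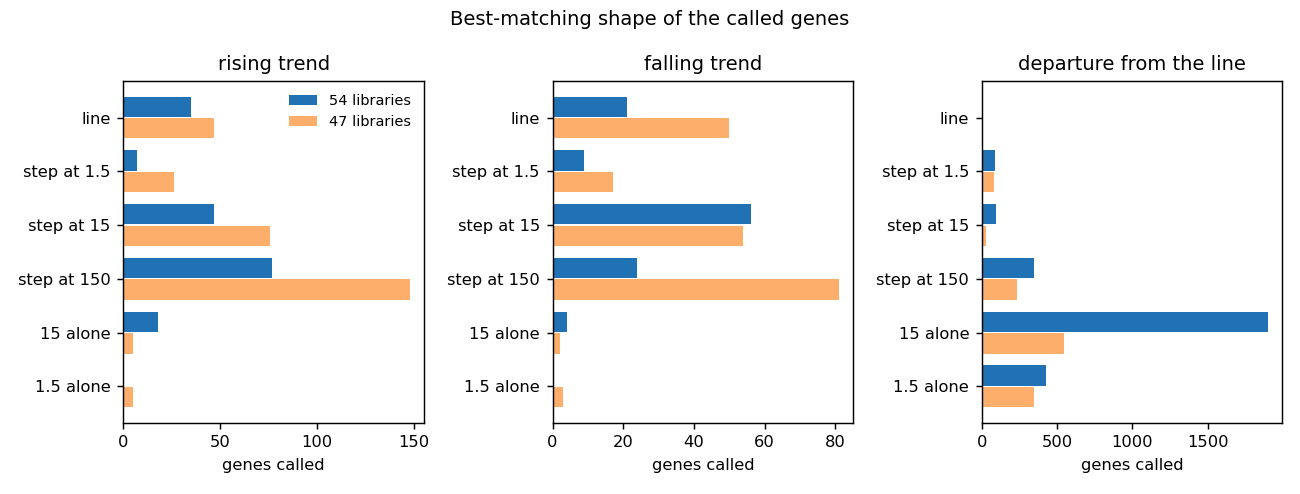
Bars give the number of genes with a trend whose group means matched each shape best, with all 54 libraries and with the 47 left without those that stood apart. With 54 libraries 77 of 184 rising genes matched a step at 150 mg/kg bw/d, and 56 of 114 falling genes matched a step at 15. With 47 libraries 54 of 207 falling genes matched a step at 15, of which 28 were among the 56, and 81 matched a step at 150.

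In 5 lists of lipid genes (the Cyp4a family, peroxisomal and mitochondrial beta-oxidation, acyl-CoA thioesterases, and lipid droplet proteins), 41 of 111 tested genes rose with dose and none fell, against 1.61% and 0.997% of all genes, while 58 had a positive and 4 a negative slope at an unadjusted p under 0.05. Their slopes lay between 0.09 and 0.58. For 21 of the 41 the departure was also called: their median difference from control was 0.07 at 1.5, 0.08 at 15 and 0.86 at 150 mg/kg bw/d on the log2 scale. For the other 20 no departure was called, and the corresponding medians were 0.05, 0.29 and 0.42, with all 20 above control at 15. The departure test used these same group means, so the split itself sorts the genes by shape and does not show 2 classes. This difference between the 21 and the 20 at 15 rested on the libraries that stood apart: without them the median at 15 was 0.12 above control in either set, 15 of the 20 were above control, and departures were called for 15 of the 21 and for 5 of the 20 (Slc22a5, Ech1, Decr1, Hadhb and Etfdh). With the GC covariate 8 and 0 departures were called. Most of the 41 kept their call without the 15 mg/kg bw/d group (39), without the 7 libraries (41) and with the GC gradient of the library as a covariate (34).

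**Figure D3:**
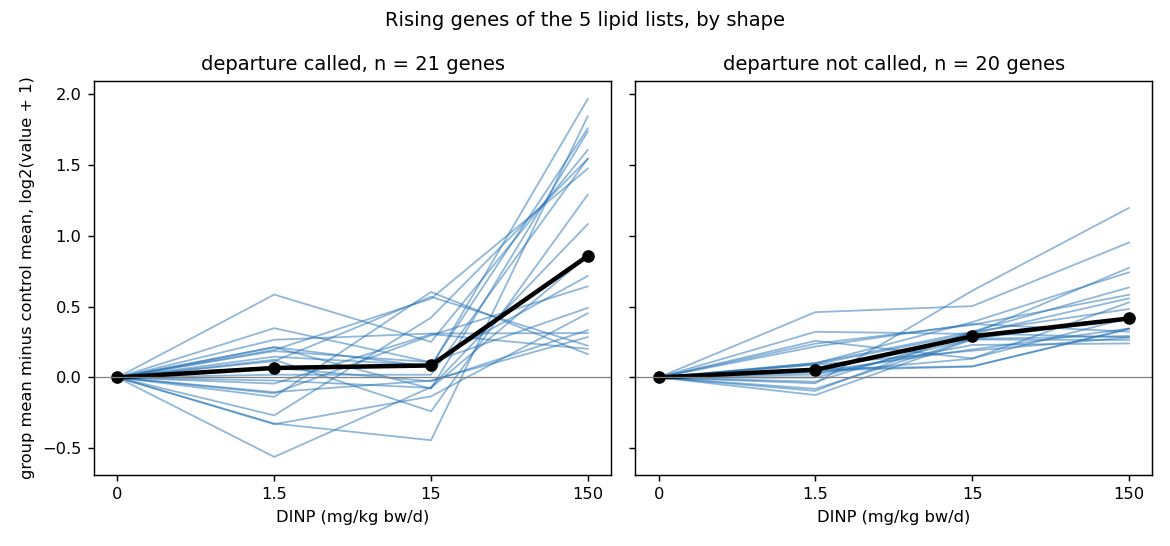
Lines give the mean of log2(value + 1) in each dose group minus that of the control group for the 41 lipid genes that rose with dose, split by whether their departure from the line was called, and the black line is the median gene. The departure test used these same group means, so the split itself sorts the genes by shape. The 21 genes with a departure stayed near 0 up to 15 mg/kg bw/d (median 0.08) and reached a median of 0.86 at 150, whereas the median of the other 20 was 0.29 at 15 and 0.42 at 150, and without the 7 libraries that stood apart it was 0.12 at 15 in either set.

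The Cyp4a genes encode microsomal hydroxylases that oxidise the terminal carbon of fatty acids, and all 5 that were tested rose and departed from the line, each as a step at 150 mg/kg bw/d. Departures were called for 3 of the 5 without the 7 libraries, where Cyp4a12a and Cyp4a12b lost theirs (adjusted p = 0.0504 and 0.283), and for 2 of the 5 with the GC covariate. Because these genes are near-identical in places, reads may have been divided among them and their separate values are uncertain. Cyp4a10 (gene span chr4:115518264-115533649, GRCm38) was measured from 37.5 to 179 (median 126) in the control mice, from 22.9 to 278 (median 149) at 1.5, from 54.1 to 188 (median 128) at 15 and from 204 to 705 (median 381) at 150 mg/kg bw/d. The 3 lower groups overlapped, and 12 of the 14 mice at 150 stood above every mouse of the lower groups. The slope of Cyp4a10 was 0.52 ± 0.078 (SE) (limma, adjusted p = 1.54e-05), its departure had an adjusted p of 0.000721, and the last step alone was 1.67 ± 0.25 (SE). Cyp4a14 (chr4:115486200-115496142) ranged from 105 to 583 (median 345) in the control mice, from 17.7 to 938 (median 315) at 1.5, from 83.3 to 429.7 (median 272) at 15 and from 864 to 1809.9 (median 1111) at 150 mg/kg bw/d. Its median sank slightly over the first 3 groups before the jump, 1 of 13 mice at 15 lay above the control median, and 13 of 14 at 150 lay above every other mouse. The first step of Cyp4a14 was -0.32 ± 0.31 (SE) (adjusted p = 0.731), the second -0.12 ± 0.31 (SE) (adjusted p = 0.834) and the third 2.28 ± 0.31 (SE) (adjusted p = 3.34e-07). A slope over control, 1.5 and 15 mg/kg bw/d alone, which equals the difference between 15 and control divided by the 2 steps between them, was called for none of the 5 Cyp4a genes (limma, median 0.04 per step), whereas 865 of all genes rose by that measure (7.57%). The corresponding slope over the 3 exposed groups, which leaves the control mice out, was called for all 5 (2.55% of all genes rose by it).

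Ehhadh, the bifunctional enzyme that carries out the middle steps of peroxisomal beta-oxidation (chr16:21761287-21787807), had the smallest trend p of all genes and was the clearest step. Its values ran from 10.6 to 30.0 (median 14.2) in the control mice, from 11.5 to 23.8 (median 15.2) at 1.5, from 11.1 to 21.9 (median 15.1) at 15 and from 33.0 to 73.1 (median 48.9) at 150 mg/kg bw/d. Every mouse at 150 stood above all 40 mice of the lower groups, whose ranges overlapped. The slope was 0.47 ± 0.039 (SE) (adjusted p = 8.05e-13), but the line held only 62.2% of the variation between the group means and the departure was called with an adjusted p of 7.63e-09. Its step from 1.5 to 15 was 0.00027 ± 0.13 (SE) and that from 15 to 150 was 1.52 ± 0.12 (SE) (adjusted p = 4e-13).

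Acot1, a cytosolic thioesterase that releases fatty acids from coenzyme A (chr12:84009490-84018371), also rose. Acot1 values lay from 4.59 to 19.7 (median 11.8) in the control mice, from 4.17 to 30.5 (median 8.38) at 1.5, from 8.56 to 27.8 (median 14.6) at 15 and from 15.8 to 49.1 (median 38.5) at 150 mg/kg bw/d. All 14 mice at 150 were above the control median, as were 9 of 13 at 15 and 3 of 13 at 1.5. Its steps were -0.27 ± 0.21 (SE), 0.69 ± 0.22 (SE) and 1.12 ± 0.21 (SE), the last 2 of which were called (adjusted p = 0.0169 and 0.000111). Without the 7 libraries the step of Acot1 from 1.5 to 15 was 0.38 and was not called (adjusted p = 0.422). Of the 10 thioesterases tested 5 rose (Acot1, Acot2, Acot3, Acot4 and Acot12), and reads of Acot1 to Acot4, which are close copies in 1 cluster, may not be separable.

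In the peroxisomal list 14 of 48 tested genes rose, 6 with a departure (among them Ehhadh, Decr2, Pex11a, Acaa1b and Phyh) and 8 without. Decr2, a peroxisomal dienoyl-CoA reductase, was the only gene with a trend for which all 3 adjacent steps were called. Its medians of 90.4, 108, 101 and 120.0 from control to 150 mg/kg bw/d went up, down and up again, by 0.35 ± 0.088 (SE), -0.24 ± 0.089 (SE) and 0.38 ± 0.088 (SE) on the log2 scale, with a slope of 0.13 ± 0.027 (SE) (adjusted p = 0.00485). Without the 7 libraries the steps of Decr2 from 1.5 to 15 and from 15 to 150 were -0.07 and 0.21 and were not called (adjusted p = 0.742 and 0.124), and neither was its departure (adjusted p = 0.107).

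The graded genes had another form. Hsd17b11, a lipid droplet-associated dehydrogenase (chr5:103989762-104021919), had the smallest p among them and was measured from 105 to 166 (median 132) in the control mice, from 119.8 to 172 (median 141) at 1.5, from 115 to 240.1 (median 168) at 15 and from 169.8 to 333 (median 221) at 150 mg/kg bw/d. Above the control median were 10 of 13 mice at 1.5, 12 of 13 at 15 and 14 of 14 at 150, although neighbouring groups overlapped. The slope was 0.25 ± 0.029 (SE) (adjusted p = 5.38e-08), the line held 95.2% of the variation between groups, and no departure was called (adjusted p = 0.315). The steps of Hsd17b11 were 0.10 ± 0.094 (SE), 0.29 ± 0.10 (SE) and 0.35 ± 0.094 (SE), with adjusted p of 0.728, 0.0247 and 0.00555. Its slope below the highest dose was 0.19 ± 0.047 (SE) (adjusted p = 0.0031), and 0.14 (adjusted p = 0.0724) without the 7 libraries. Without them the departure of Hsd17b11 had an unadjusted p of 0.0134 (F test, adjusted p = 0.0881), so it was then not graded by the rule above.

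Eci2 and Eci1, isomerases that let peroxisomes and mitochondria degrade unsaturated fatty acids, followed the line closely with all libraries. Eci2 (chr13:34977748-35027096) was measured from 58.9 to 139 (median 102) in the control mice, from 90.3 to 140.2 (median 118) at 1.5, from 97.5 to 176 (median 119.7) at 15 and from 118 to 198 (median 148) at 150 mg/kg bw/d. Each group reached into the next, and 1 mouse at 150 stood above all mice of the lower groups. For Eci2 the slope was 0.19 ± 0.03 (SE) (adjusted p = 5.7e-05) and the line held 99.0% of the variation between groups, while none of the 3 single steps was called (0.24 ± 0.10 (SE), 0.13 ± 0.10 (SE) and 0.21 ± 0.10 (SE)). Eci1 (chr17:24426641-24439348) lay from 73.0 to 119 (median 106) in the control mice, from 86.6 to 163 (median 106) at 1.5, from 95.7 to 244 (median 123) at 15 and from 118 to 167 (median 146) at 150 mg/kg bw/d. The 2 highest values belonged to mice at 15, yet the medians were ordered by dose from 1.5 upward (slope 0.17 ± 0.03 (SE), adjusted p = 0.000356). The slope over the lower doses was called for Eci2 and Eci1 with all libraries (adjusted p = 0.00626 and 0.0173) and not without the 7 that stood apart (0.294 and 0.328). Without the 7 the step from 1.5 to 15 was -0.039 for Eci2 and 0.043 for Eci1, neither called (limma, adjusted p = 0.895 and 0.858). The step from 15 to 150 was then 0.38 and 0.34 (adjusted p = 0.0151 and 0.01).

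Angptl4, a secreted inhibitor of lipoprotein lipase (chr17:33773750-33781830), had the steepest slope among the genes that matched a line best. Its values were from 2.65 to 11.4 (median 6.72) in the control mice, from 4.65 to 11.6 (median 7.63) at 1.5, from 4.42 to 17.9 (median 9.73) at 15 and from 8.86 to 28.6 (median 18.5) at 150 mg/kg bw/d. The lower groups shifted upward while still overlapping, and 8 of 14 mice at 150 exceeded all others. The slope was 0.48 ± 0.051 (SE) (adjusted p = 4.42e-09), and a small departure was also called (adjusted p = 0.0411). Its steps were 0.19 ± 0.16 (SE), 0.36 ± 0.17 (SE) and 0.92 ± 0.16 (SE), and only the last was called (adjusted p = 5.59e-05). Without the 7 libraries the step of Angptl4 from 1.5 to 15 was 0.20 (adjusted p = 0.605) and the departure was still called (adjusted p = 0.0247). Its slope over the lower doses had an adjusted p of 0.0166 with all libraries and 0.130 without the 7. Slc22a5, the plasma membrane carnitine transporter (chr11:53864542-53891660), had low values, from 1.96 to 5.04 (median 3.64) in the control mice, from 2.10 to 6.67 (median 3.58) at 1.5, from 2.85 to 8.03 (median 4.09) at 15 and from 5.22 to 8.54 (median 6.02) at 150 mg/kg bw/d. The first 2 doses overlapped control and 14 of 14 mice at 150 were above the control median (slope 0.25 ± 0.04 (SE), adjusted p = 5.45e-05). Without the 7 libraries the step of Slc22a5 from 1.5 to 15 was -0.074 (adjusted p = 0.844) and that from 15 to 150 was 0.75 (adjusted p = 0.000304). Its departure was then called (adjusted p = 0.0251). Lpin2, a phosphatidate phosphatase of triglyceride synthesis (chr17:71182560-71249817), ranged from 28.1 to 56.7 (median 41.5) in the control mice, from 35.4 to 118 (median 58.7) at 1.5, from 35.4 to 98.2 (median 58.7) at 15 and from 43.3 to 143 (median 91.6) at 150 mg/kg bw/d. For Lpin2 the medians at 1.5 and 15 were nearly equal and lay between those of control and 150 (slope 0.29 ± 0.051 (SE), adjusted p = 0.00025).

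**Figure D4:**
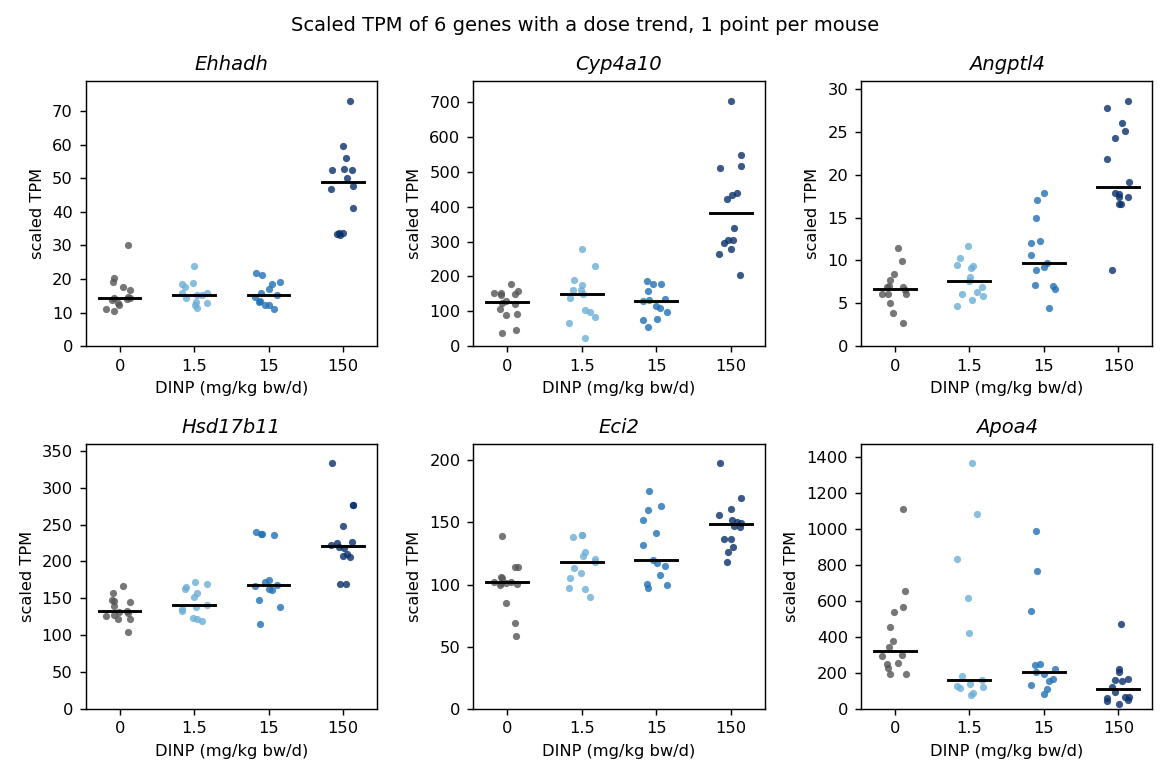
Points are single mice for 6 genes, with the deposited value against dose group and a black line at each group median. Ehhadh and Cyp4a10 stayed level up to 15 mg/kg bw/d and all 14 mice at 150 exceeded the control median in both, Hsd17b11, Eci2 and Angptl4 rose through the groups (slopes of 0.25, 0.19 and 0.48 per step), and Apoa4 fell (-0.55). Without the 7 libraries that stood apart, which are not marked here, the slope over the lower doses was not called for Hsd17b11, Eci2 or Angptl4 (limma, adjusted p = 0.0724, 0.294 and 0.130).

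Of the 27 tested genes of mitochondrial beta-oxidation and the carnitine shuttle 14 rose, among them Slc22a5, Eci1, Echs1, Acsl1, Cpt2, Decr1, Acadl and Hadhb. Aldh9a1, an aldehyde dehydrogenase of carnitine synthesis (chr1:167349991-167368532), had already reached its level at the lowest dose: it was measured from 39.8 to 59.2 (median 53.3) in the control mice, from 50.0 to 74.4 (median 64.5) at 1.5, from 50.5 to 77.8 (median 63.8) at 15 and from 58.5 to 76.5 (median 64.0) at 150 mg/kg bw/d. The exposed groups had nearly the same medians, and 12 of 13, 12 of 13 and 14 of 14 of their mice were above the control median. The first step was 0.27 ± 0.061 (SE) (adjusted p = 0.0178) and the following steps were 0.044 ± 0.063 (SE) and 0.003 ± 0.061 (SE). Ppara itself, in the list of sensing receptors, was called with a slope of 0.18 ± 0.037 (SE) (adjusted p = 0.00355) and medians of 134, 148, 135 and 196, and its groups overlapped. Txnip, which binds thioredoxin and responds to glucose, and Pdp2, a pyruvate dehydrogenase phosphatase, rose as steps at 150, with last steps of 1.00 ± 0.17 (SE) and 0.68 ± 0.091 (SE). Abhd6, a monoacylglycerol lipase, and Chdh, the choline dehydrogenase of mitochondria, were graded with slopes of 0.21 ± 0.037 (SE) and 0.11 ± 0.021 (SE), and so was Mrpl38, a mitochondrial ribosomal protein, with 0.17 ± 0.027 (SE).

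Outside lipid oxidation, Cfd and Krt23 were also steps at 150 mg/kg bw/d. Cfd, the complement protease adipsin (chr10:79890853-79892655), was measured from 0.764 to 11.2 (median 4.99) in the control mice, from 0 to 17.7 (median 2.94) at 1.5, from 0 to 25.1 (median 3.81) at 15 and from 5.10 to 52.7 (median 23.1) at 150 mg/kg bw/d. All 14 mice at 150 were above the control median, and the lower groups reached 0 in single mice. Its slope was 0.63 ± 0.14 (SE) (adjusted p = 0.0059), a call lost when 0.1 rather than 1 was added before the logarithm (adjusted p = 0.0863). Krt23, a keratin of epithelial cells, had medians of 2.87, 2.03, 2.85 and 8.07 and a last step of 1.40 ± 0.24 (SE) (adjusted p = 2.38e-05). In the list of heat shock proteins and chaperones 4 of 41 genes rose (1.61% of all genes did), the mitochondrial chaperones Hspd1, Hspe1, Hspa9 and Dnaja3, and 1 fell, Hspb8 (0.997% of all genes). None of these 4 was called once the mice at 15 were left out, and for Hspd1 the medians of 92.7, 84.7, 112 and 99.7 were highest at 15.

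Slopes and steps over part of the groups were also counted for the genes with a trend. They use the same group means as the trend. Their shares among genes chosen by the trend are therefore raised by that choice and are no separate support for it. The adjacent steps were called for 104 of the 298 genes from 15 to 150 and for 107 from 1.5 to 15, each in the direction of the trend, where 20.0% and 21.4% of all genes were called (9.85% rising and 10.1% falling at the last step, 10.9% and 10.5% at the one before). Of the 298 genes, 124 also had a slope over control, 1.5 and 15 mg/kg bw/d called in the same direction. Without the 7 libraries such a slope was called for 80 of the 514 genes that then had a trend. Of the 184 rising genes it was called for 66 with all libraries and for 40 without the 7. Of the 41 lipid genes it was called for 14 with all libraries and for 7 without those that stood apart. Lpin2, Slc27a2, Echs1, Aldh9a1, Acot12 and Phyh were called with and without those libraries, and Acadl only without them. By the slope over the lower groups 14.2% of all genes were called (7.57% rising and 6.61% falling). A slope over the 3 exposed groups was called in the same direction for 162 of the 298 and for 31 of the 41, against 4.61% of all genes (2.55% rising and 2.06% falling).

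Few genes with a trend had moved at the lowest dose. The step from control to 1.5 mg/kg bw/d was called for 137 genes (1.20%, with 0.674% rising and 0.525% falling), and 8 of these had a trend in the same direction: Rpl17, Gnas, Aldh9a1, Ireb2 and Decr2 rose, and Rraga, Laptm4a and Mbl2 fell. Rraga, a GTPase that recruits mTORC1 to lysosomes, was measured from 57.4 to 107 (median 89.1) in the control mice, from 42.2 to 75.1 (median 51.0) at 1.5, from 34.3 to 73.9 (median 58.7) at 15 and from 41.8 to 86.3 (median 63.8) at 150 mg/kg bw/d. None of the 40 exposed mice reached the control median, but the groups overlapped in their ranges. The first step of Rraga was -0.65 ± 0.11 (SE) (adjusted p = 0.0017), the second -0.055 ± 0.11 (SE) (adjusted p = 0.779) and the third 0.24 ± 0.11 (SE) (adjusted p = 0.119), and the slope of -0.15 ± 0.035 (SE) (adjusted p = 0.0105) came with a departure (adjusted p = 9.74e-05). Rpl17, a large-subunit ribosomal protein, had a first step of 0.40 ± 0.077 (SE), and Ireb2, which regulates iron-responsive messenger RNAs, one of 0.47 ± 0.12 (SE).

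Among the falling genes Apoa4, an apolipoprotein of intestine and fatty liver (chr9:46240696-46243459), had the steepest slope. Its values ranged from 193 to 1114 (median 324) in the control mice, from 78.9 to 1366 (median 158) at 1.5, from 79.6 to 989.9 (median 206) at 15 and from 27.2 to 473 (median 109) at 150 mg/kg bw/d. The spread within groups was wide, 1 of 14 mice at 150 was above the control median and 6 lay below every mouse of the lower groups. The slope was -0.55 ± 0.13 (SE) (adjusted p = 0.00888) with no departure called (adjusted p = 0.455), and it was no longer called with the GC gradient as a covariate (adjusted p = 0.0729). Serpina12, which encodes the adipokine vaspin (chr12:104028769-104044443), fell as a step at 150: it lay from 4.42 to 35.2 (median 20.5) in the control mice, from 13.4 to 32.3 (median 24.1) at 1.5, from 10.7 to 34.1 (median 16.3) at 15 and from 2.14 to 20.7 (median 7.79) at 150 mg/kg bw/d. For Serpina12 the first step was 0.28 ± 0.23 (SE) and the last -1.16 ± 0.23 (SE) (adjusted p = 0.000156). Ccne2, a cyclin that drives entry into S phase, had low values with medians of 3.96, 3.81, 2.85 and 1.04 and a slope of -0.34 ± 0.08 (SE) (adjusted p = 0.00939, but 0.0854 with the GC gradient as a covariate).

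With all libraries, some other falling genes changed between 1.5 and 15 mg/kg bw/d. Ssrp1, a subunit of the FACT histone chaperone, had medians of 43.9, 41.9, 28.1 and 28.5 and a second step of -0.43 ± 0.14 (SE) (adjusted p = 0.0223). Jund, an AP-1 subunit, had medians of 52.5, 51.5, 36.2 and 40.3 and a second step of -0.46 ± 0.11 (SE) (adjusted p = 0.00269), with 1 of 13 mice at 15 and 0 of 14 at 150 above the control median. These second steps are given with all libraries only, and over all genes that step was called for 2449 with and 518 without the 7 libraries. The trends of Ssrp1 and Jund were called without the 7 (slopes -0.195 and -0.157, limma, adjusted p = 0.000322 and 0.00309). Hspb8, a small heat shock protein, followed a line instead, with medians of 70.7, 62.7, 49.3 and 50.8 and a slope of -0.16 ± 0.038 (SE) (adjusted p = 0.0114). Smim30, Ube2m, Habp4 and Arrdc3 also fell, with slopes of -0.14, -0.14, -0.081 and -0.21, and so did Mmd2, Atp2b2 and BC002189 (-0.32, -0.27 and -0.29). Ntrk2 (-0.30) and Dusp14 (-0.22) also fell, but no mouse at 150 had a value above 1.05 for either, and the call of Dusp14 was lost when any of 17 single libraries was left out, while that of Ntrk2 was lost with the GC gradient as a covariate (adjusted p = 0.109).

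In the extracellular matrix list 3 of 36 tested genes fell, against 0.997% of all genes: the collagen chaperone Serpinh1, the elastic fibre protein Emilin1 and the collagen Col15a1. Slopes were below 0 for 32 of the 36 (median -0.10 against -0.001 over all genes), and 10 had a negative and 1 a positive slope at an unadjusted p under 0.05. Serpinh1 was measured from 2.98 to 13.0 (median 5.28) in the control mice, from 3.02 to 9.31 (median 4.48) at 1.5, from 1.02 to 17.7 (median 4.03) at 15 and from 0.984 to 4.18 (median 3.07) at 150 mg/kg bw/d. No mouse at 150 reached the control median of Serpinh1, though all groups overlapped (slope -0.24 ± 0.063 (SE), adjusted p = 0.0197, and 0.103 with the GC gradient as a covariate). Emilin1 and Col15a1 had slopes of -0.17 ± 0.04 (SE) and -0.19 ± 0.052 (SE). The call of Col15a1 was lost with the GC covariate (adjusted p = 0.0935) and when any of 3 single libraries was left out, and with the covariate 1 of the 3 calls, that of Emilin1, was left. The summed markers of stellate cells, the main source of matrix in liver, had medians of 163, 182, 157 and 154 in order of dose, and their part in this result was not tested.

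In several other lists the number of trend calls was near the share over all genes (2.61%) or at 0, which with lists of this size is no result about the pathways. Cholesterol synthesis had 0 of 26 genes called (limma, 1 at an unadjusted p under 0.05, rising), bile acid synthesis and transport 0 of 21 (2 unadjusted, falling), and the major urinary proteins 0 of 21 (1 unadjusted, rising). In de novo lipogenesis 1 of 22 genes was called, Pklr, the liver pyruvate kinase, which fell with a slope of -0.18 ± 0.05 (SE) (adjusted p = 0.0363) and lost its call when any of 12 single libraries was left out. The P450 families 1 to 3 with their receptors had 1 call of 44, which was Ppara, and the unfolded protein response 1 of 34, Derl2 (-0.074, adjusted p = 0.0483), a call lost when any of 32 of the 54 libraries was left out, while 9 of the 34 had a negative and 0 a positive slope at an unadjusted p under 0.05.

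Departures were far more frequent than trends, and most lay at 15 mg/kg bw/d. A departure was called for 2857 genes (25.0%), and for 1902 of them (66.6%) a shift at 15 alone was the best-matching shape. The same shape matched best for 37.8% of all genes tested. Of the 2857 genes, 1414 lay above the mean of the other groups at 15 (12.4% of all genes tested). The other 1443 lay below it (12.6% of all genes tested). Both adjacent steps were called in opposite directions for 716 genes that peaked at 15 and 578 that dipped there, compared with 49 and 21 for 1.5. Without the 7 libraries the departures fell to 1234, with 548 at 15 alone, and the peaks and dips with both steps called to 146 and 112. The direction at 15 was the same with and without those libraries in 2468 of the 2857 genes. With the GC gradient, which was itself shifted at 15 mg/kg bw/d, as a covariate 782 departures were called. Departures above at 15 were more frequent among genes of low GC content (365 in the lowest of 5 equal bins of GC and 136 in the highest), and those below among genes of high GC content (144 and 380), over the 9856 genes with a known transcript end (86.2%).

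Genes of translation, respiration and protein degradation are described here by their counts, which were not tested for the lists. Departures were called for 25.0% of all genes with all libraries, for 10.8% without the 7 that stood apart and for 6.84% with the GC covariate. Of 84 cytosolic ribosomal protein genes, 58 departed and 55 of these lay above at 15, but 19 departed without the 7 libraries and 16 with the GC covariate. For the nuclear-encoded subunits of oxidative phosphorylation the numbers were 50 of 81 (44 above), 34 and 17, for the proteasome 31 of 46 (17 above), 13 and 14, and for mitochondrial ribosomal proteins 31 of 78 (25 above), 11 and 6. The last 2 counts are 14.1% and 7.69% of the mitochondrial ribosomal list, near the shares of all genes, and those of the cytosolic list are 22.6% and 19.0%. Trends were called for 2, 4, 1 and 4 members of these lists, which are shares of the size found over all genes (2.61%) for the ribosomal proteins of the cytosol and the proteasome.

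Atp5pf, a subunit of ATP synthase, was divided by library at 15 mg/kg bw/d. It was measured from 119 to 304 (median 159) in the control mice, from 94.1 to 165 (median 129) at 1.5, from 158 to 747 (median 288) at 15 and from 116 to 285 (median 156) at 150 mg/kg bw/d. Within the group at 15 the 6 libraries that stood apart had values from 392 to 747, above every other mouse, and the other 7 from 158 to 288. Fdx2, a mitochondrial ferredoxin, was divided in the same way at 15, with 3.98 to 11.1 against 0 to 2.04. The departure of Atp5pf had an adjusted p of 1.15e-06 with all libraries and 0.00354 without the 7, and that of Fdx2 0.000111 and 0.175. Thrsp, a regulator of lipogenesis, was highest at 15 with medians of 242, 293, 493 and 169, with an adjusted departure p of 0.0253 with all libraries and 0.171 without the 7, while its deviation at 15 from the mean of the other groups was 0.96 and 0.93.

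Other genes turned at 15 in both kinds of library. Pin4, a peptidyl-prolyl isomerase (chrX:102119447-102127669), lay from 10.6 to 26.4 (median 15.7) in the control mice, from 9.07 to 21.9 (median 15.7) at 1.5, from 23.4 to 86.2 (median 38.7) at 15 and from 11.4 to 26.7 (median 17.3) at 150 mg/kg bw/d. All 13 mice at 15 exceeded the control median and 10 exceeded every other mouse. Within the group the libraries that stood apart had 35.4 to 86.2 and the others 23.4 to 47.7, and the departure was called with and without them (adjusted p = 6.57e-09 and 0.000118). Rpl4, a large-subunit ribosomal protein (chr9:64173375-64178666), was measured from 75.3 to 115 (median 89.4) in the control mice, from 85.0 to 125 (median 97.5) at 1.5, from 101 to 257 (median 147) at 15 and from 69.6 to 112 (median 92.5) at 150 mg/kg bw/d. At 15, 12 of 13 mice exceeded all other mice for Rpl4, and the ranges of the 2 sorts of library overlapped (140 to 257 and 101 to 222). The steps of Rpl4 into and out of 15 were 0.69 ± 0.10 (SE) and -0.84 ± 0.10 (SE), and its departure had an adjusted p of 6.03e-09, or 6.82e-06 without the 7 libraries.

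Psmd11, a subunit of the proteasome lid (chr11:80428615-80473248), turned the other way. Its values lay from 109 to 146 (median 124) in the control mice, from 96.8 to 136 (median 115) at 1.5, from 61.9 to 108 (median 85.9) at 15 and from 97.2 to 147 (median 117) at 150 mg/kg bw/d. No mouse at 15 reached the control median and 10 of 13 lay below every other mouse, although here the libraries that stood apart were lower (61.9 to 83.5) than the rest of that group (85.9 to 108). The departure of Psmd11 had an adjusted p of 3.24e-07 with all libraries and 0.00287 without the 7.

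Slc25a22 and Bdh1 were lower than control at both lower doses and not at the highest. Slc25a22, a mitochondrial glutamate carrier (chr7:141429744-141437892), was measured from 68.0 to 104 (median 75.6) in the control mice, from 53.8 to 70.6 (median 60.9) at 1.5, from 36.1 to 67.4 (median 53.1) at 15 and from 59.5 to 118 (median 83.6) at 150 mg/kg bw/d. No mouse at 1.5 or 15 reached the control median, while 8 of 14 mice at 150 lay above it, and the ranges of control and 150 overlapped. Its slope was -0.0026 ± 0.028 (SE) (adjusted p = 0.983), the step from control to 1.5 was -0.38 ± 0.09 (SE) (adjusted p = 0.024) and that from 15 to 150 was 0.68 ± 0.09 (SE) (adjusted p = 2.25e-07). Bdh1, the mitochondrial enzyme that forms beta-hydroxybutyrate (chr16:31422280-31458901), lay from 172 to 229 (median 202) in the control mice, from 126 to 200.1 (median 154) at 1.5, from 81.8 to 198 (median 137) at 15 and from 159 to 238 (median 203) at 150 mg/kg bw/d. For Bdh1 too, none of the 26 mice at 1.5 and 15 reached the control median. Its first step was -0.35 ± 0.093 (SE) (adjusted p = 0.0426), its last 0.61 ± 0.093 (SE) (adjusted p = 3.42e-06) and its slope -0.012 ± 0.029 (SE) (adjusted p = 0.895). Departures of Slc25a22 and Bdh1 were called without the 7 libraries (adjusted p = 9.31e-06 and 8.61e-05) and with the GC covariate (adjusted p = 3.91e-05 and 0.000393).

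**Figure D5:**
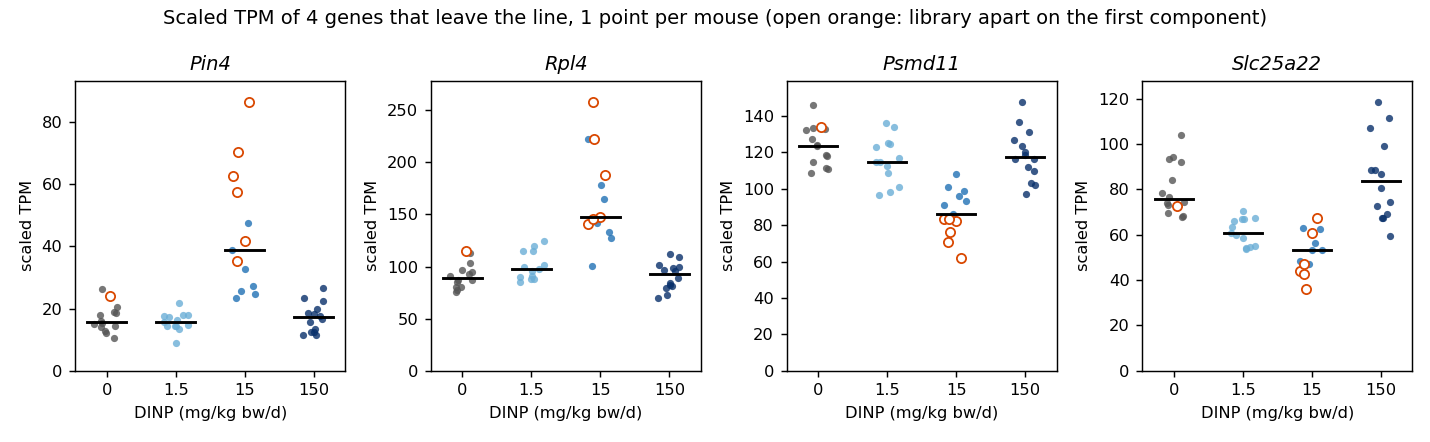
Points are single mice for Pin4, Rpl4, Psmd11 and Slc25a22, with the deposited value against dose group and a line at each group median, and open orange points are the libraries that stood apart. Medians at 15 mg/kg bw/d were highest for Pin4 (38.7) and Rpl4 (147) and lowest for Psmd11 (85.9) and Slc25a22 (53.1), and filled as well as open points took part.

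Turns at 1.5 mg/kg bw/d were rarer. Among the 2857 genes with a departure, 720 had their highest mean (25.2%) and 761 their lowest (26.6%) at this dose. These are 6.30% and 6.66% of all genes tested. Of all genes tested, with or without a departure, 26.0% had their highest and 23.8% their lowest mean there. For 1184 of the 2857, one extreme was at 1.5 and the other at 15. Mup14, a major urinary protein secreted by male liver, had medians of 1124, 2488, 1461 and 1896, and every mouse at 1.5 was above the control median. Its steps into and out of 1.5 were 1.31 ± 0.32 (SE) and -1.28 ± 0.33 (SE) (adjusted p = 0.032 and 0.00359), and its departure was called without the 7 libraries too (adjusted p = 0.00176 and 0.0175). The Mup genes are close copies of each other, and for Mup9, the other one with a large turn, the deviation at 15 from the mean of the other groups changed from -1.67 to 0.44 without those libraries. Among the other genes named for a large turn at 1.5 were the small nucleolar RNAs Snord70, Snord71 and Snora2b, each at 0 in most control mice, and Snord118, the U8 small nucleolar RNA, with medians of 8.21, 0, 3.01 and 5.59 and an adjusted departure p of 0.00669 (limma). Departures of the first 3 were not called without the 7 libraries (adjusted p = 0.201, 0.129 and 0.146) or with the GC covariate (0.190, 0.148 and 0.115). That of Snord118 was called in both (0.0167 and 0.0178) but not on normal scores of the ranks. Small nucleolar RNAs carry no poly(A) tail, on which these libraries were primed.

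The rising genes were also examined for the letters that PPARα and related receptors bind. The DR1 element, a direct repeat of AGGTCA with 1 base between the copies, was searched on both strands in the 250 bases before each start listed by RefSeq (GRCm38.p6), as was its single copy AGGTCA, which the repeat contains. None of the 137 rising and none of the 88 falling genes with a listed promoter held the exact repeat, which occurred in 0.0478% of the 8370 tested genes and 0.0407% of all 27025 promoters. The single copy was in 18 of the rising (13.1%) and 10 of the falling genes (11.4%), compared with 13.7% of the tested genes and 15.8% of all promoters. The following windows show it, in capitals and on the gene's strand, in the 4 lipid genes among the 18, for Slc27a2 at chr2:126552794-126552819, for Echs1 at chr7:140116489-140116514 on the reverse strand, for Acot4 at chr12:84038356-84038378 and for Acot12 at chr13:91741401-91741426.
Slc27a2: accacgccttTGACCTtttcaacgtg
Echs1: cagcccgctcAGGTCAcgggtccacc
Acot4: ccccgaagcaTGACCTttggccg
Acot12: cgtaggacccTGACCTctcacctcct
TGACCT is the same copy read on the opposite strand. A match is a description of letters in this window, and the share in rising genes was close to that in all genes tested.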

How the data were processed

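Total liver RNA was sequenced by the authors as QuantSeq libraries primed at the poly(A) tail, and per the submitters' processing notes the reads were processed with nf-core/rnaseq 3.14.0 (STAR, RSEM, Salmon) on GRCm38. The values deposited by the authors are a signal in which each sample holds whole multiples (within 0.01) of 1 step of 0.764 to 1.11, and the whole numbers sum to 948342 to 980641 per sample. They were taken for TPM that had been rounded and then scaled by a size factor, so no count test was run, sequencing depth is unknown and no counting interval can be given.

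Genes with a mean of at least 1 were fitted in limma 3.58.1 (R 4.3.3) on log2(value + 1), which understates changes of low genes, with linear, quadratic and cubic terms of the dose code, moderated variances with a mean trend, and Benjamini-Hochberg adjustment over all 11431 genes. Group means in the same fit gave the adjacent steps and the slopes over 3 groups. Adjusted p under 0.05 was called. The design of the authors, DESeq2 on pairs of groups, was not repeated, because it needs counts. Of 20143 symbols 17 stood on more than 1 row, and all rows were kept. Mice were taken as independent samples, and p-values measure the spread between mice. The replicate numbers did not pair mice: over 79 pairs with the same number in 2 groups the deviations from the group means had a mean correlation of -0.0025 (from -0.359 to 0.243), and 12.7% were above 0.1. Best-matching shape was the one whose contrast held the largest share of the variation between group means.

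The groups, gene lists and members were chosen with earlier results of these data known. Genes were named by rule: the 10 steepest rising and falling trends, the 8 graded genes of smallest p in each direction, the 6 largest departures for each turn at 15 or 1.5, and up to 4 members of each list, leaving out Rik, numbered Gm and -ps symbols. Other genes named, including those called at the first step, were chosen after their values were seen, and some genes that the rule selects are not reported here. Leaving out the 7 libraries, the GC covariate and the 15 mg/kg bw/d group (for named genes) were alternatives chosen after seeing the data, while pseudocounts, filters, scalings, array weights, ranks, dose in mg, the line alone, left-out groups and left-out libraries were planned. GC content came from the last 500 bases of GRCm38 transcripts. Tables and figures used Python 3.11.15, numpy 2.4.6, pandas 2.3.3, scipy 1.17.1 and matplotlib 3.10.9.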

Additional observations from a re-analysis of the deposited data

How the results depend on the processing

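The number of trend genes, 298 as reported, moved by over 1.5 times in these settings: 563 with each sample divided by its total, 554 with array weights, 656 with dose in mg/kg bw/d in place of the code, 187 with a straight line alone in the model, 502 without the 15 mg/kg bw/d group, 161 without the 1.5 group, 514 without the 7 libraries that stood apart and 197 with the GC gradient as a covariate. All 298 kept the sign of their slope without the 15 group, without the 7 libraries and with the covariate, and 242, 285 and 167 of them kept their call. Departures, 2857 as reported, were 1234 without the 7 libraries and 782 with the covariate, and any difference, 3054 as reported, was 1727 and 1080. The slope over the exposed groups was called for 806 genes with totals and 872 without the 7 libraries (527 as reported), and that below the highest dose for 542 without the 7 libraries and 224 with the covariate (1621 as reported). The step from control to 1.5 (137 as reported) gave 59 with no filter on low values, 82 with totals, 297 with array weights and 239 without the 7 libraries. The step from 1.5 to 15 (2449) gave 1505 with array weights, 518 without the 7 libraries and 260 with the covariate, and that from 15 to 150 (2282) gave 988 and 765 with the last pair. The causes were not tested.

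With the replicate number as a block, although the numbers do not pair the mice, 258 trends, 2662 departures, 2828 differences of any kind, 444 slopes over the exposed groups, 1460 below the highest dose and 67, 2264 and 2115 steps were called.

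When single libraries were left out, trends ranged from 247 to 380, departures from 2385 to 3156, any difference from 2639 to 3323, exposed slopes from 374 to 570, slopes below the highest dose from 1244 to 1924, and the steps from 60 to 168, 1951 to 2733 and 1918 to 2594. The first step fell by over 1.5 times without any one of control replicates 1, 3, 4, 5, 7, 10 and 12 (69, 74, 80, 79, 80, 81 and 83 genes) or replicates 5, 8, 9, 12 and 13 at 1.5 mg/kg bw/d (62, 60, 86, 81 and 89). Of single named genes, 4 had a deviation at 15 from the mean of the other groups that changed sign: that of Cp was -0.018 after quantile normalization, and without the 7 libraries Scarna2 was -0.11, Mup9 0.44 and Fth1 -0.054. No slope of a named trend gene changed direction in the alternatives run. The depth behind the values is unknown, so low genes such as Ntrk2, Dusp14 and Fdx2 cannot be given a counting error.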
